A study of Homo sapiens with 101 samples.

Results

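The arrays described here measured RNA from 2 human colorectal cancer cell lines after a short hairpin RNA against MAPK3, the gene of the kinase ERK1, and set it against hairpins to both MEK genes. Members were all arrays titled as MAPK3 knockdown (12 arrays, 6 in each line). They were compared with all arrays titled as MAP2K1 or MAP2K2 knockdown (24 arrays, 12 in each line), so the comparison holds 36 arrays, and the series has 65 others. SW620 comes from a lymph node metastasis and SW480 from the primary tumour of the same case. The groups were cells with the MAPK3 hairpin (code A1), the MAP2K1 hairpin (code C1), the MAP2K2 hairpin (code C3), and, as background, an empty vector or a non-target hairpin (24 vector control arrays). The stated purpose of the knockdowns was to find affected genes for testing a causal gene network. Each knockdown has a single hairpin code in the labels, so the arrays with a code describe 1 hairpin per gene. The replicate 2 arrays carry none, and the labels do not say which hairpin they received. All of these cells carried a vector. Total RNA was extracted with Trizol, and each Affymetrix array measured a single sample. The labels number the arrays of each group as biological replicates 1 to 6 in 3 rounds (replicate 1, replicate 2 and replicates 3 to 6). They do not say which replicates came from separate cultures, so p-values measure the spread between these samples, which may in part be technical.

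In the RAS pathway, RAF kinases phosphorylate the MEK kinases MEK1 and MEK2 (genes MAP2K1 and MAP2K2), which phosphorylate the ERK kinases, ERK1 among them. ERK then acts on transcription factors of the ETS family and on SRF cofactors, and switches on immediate early genes and its own inhibitors, the DUSP phosphatases and SPRY proteins. Colorectal cancers often carry activating RAS mutations that feed this chain. ERK1 is a substrate of either MEK, so the comparison asks in which genes the MAPK3 hairpin differed from the hairpins against the kinases above ERK1. The arrays do not measure how much of each protein was lost.

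Values are log2 expression levels, and a change is the level under the MAPK3 hairpin minus the mean of both MEK hairpins in the same line, adjusted for round, ± its standard error. A gene was called when the limma p, adjusted by Benjamini-Hochberg over 19775 genes, was under 0.05, and called in both lines when this held in each line with the same sign. Array medians of the 36 arrays lay between 5.06 and 5.23.

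Before any result, 5 of the 36 arrays have to be set apart. On a scale from 0 (SW480 vector controls) to 1 (SW620 vector controls) built from 100 genes that separate the lines, the SW480 replicate 1 arrays labelled MAPK3, MAP2K1 and MAP2K2 knockdown lay at 0.553, 0.368 and 0.691. The other 15 SW480 knockdown arrays lay between -0.000265 and 0.123, and the 18 SW620 arrays between 0.919 and 1.04. The SW480 vector controls of replicate 1 lay at 0.0366 and 0.0387, with their line. The SW620 replicate 2 arrays of the MAPK3 and MAP2K1 knockdown had GAPDH control probe sets 2.95 and 6.04 higher at the 3 prime than at the 5 prime end (log2), against at most 0.761 on the other 34 arrays. Both-line counts over all genes are therefore given with and without these 5 arrays, and with replicates 3 to 6 alone, which hold none of them. A degraded array of the NGFR knockdown in SW620, at 3.82, was left out of the model with these 5. Counts within gene lists hold all replicates unless another setting is named. Of 10 markers of colorectal epithelium, 8 lay above the median gene, and their mean level ran from 8.14 to 9.68 over the MAPK3 arrays and from 8.33 to 9.06 over the MEK arrays. Fibroblast markers averaged 4.89 to 6.18 and 4.70 to 5.96 (1 of 8 above the median gene), endothelial markers 4.88 to 5.64 and 4.78 to 5.56 (1 of 6), and blood cell markers 4.73 to 5.86 and 4.45 to 5.54 (0 of 7). In such bulk RNA, fewer cells of a type and less RNA per cell cannot be told apart.

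**Figure D1:**
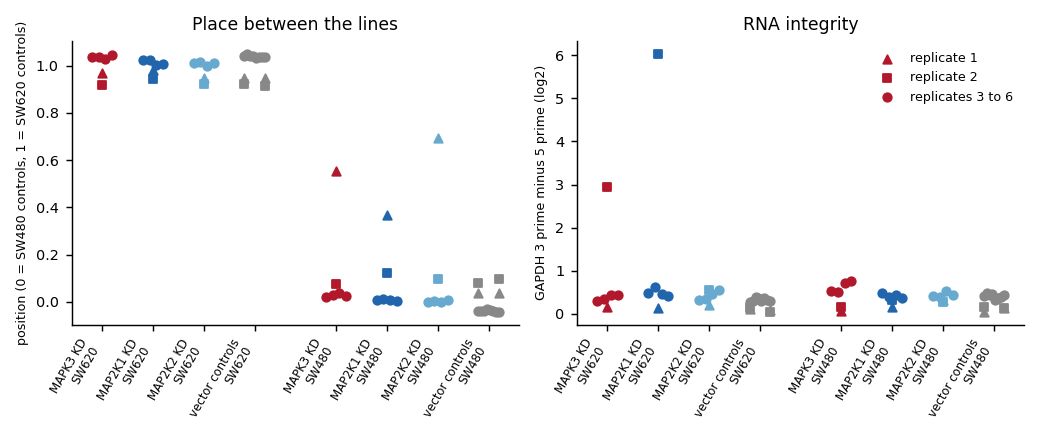
Left, the place of each array between the lines (y axis, 0 for SW480 and 1 for SW620 vector controls), and right, the 3 prime minus 5 prime difference of the GAPDH control probe sets (y axis, log2), for the MAPK3, MAP2K1 and MAP2K2 knockdowns (KD) and the vector controls of each line; each point is 1 array. The 3 SW480 knockdown arrays of replicate 1 lie at 0.368 to 0.691, and 2 SW620 arrays of replicate 2 lie at 2.95 and 6.04.

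The MAPK3 transcript was lower under its own hairpin, by less than either MEK transcript under its own, each on its brightest probe set. In SW620 the 6 MAPK3 knockdown arrays had MAPK3 levels of 6.63 to 7.30 (median 6.81), against 7.04 to 8.41 (median 7.23) on the 12 MEK arrays. In SW480 they had 6.57 to 8.32 (median 6.81), against 7.00 to 8.11 (median 7.17). The groups overlapped in both lines over all replicates and in neither line within replicates 3 to 6. MAPK3 was lower by the test in SW620 (-0.54 ± 0.078, 68.8% of the MEK knockdowns, adjusted limma p 7.86e-08), while SW480 missed the threshold (-0.23 ± 0.078, 85.5%, adjusted limma p 0.0627). The SW480 array labelled MAPK3 knockdown of replicate 1 was 0.467 above the mean of the MEK arrays of its round, and the other 11 MAPK3 arrays were below that mean. Without the 5 arrays set apart, the changes were -0.55 in SW620 and -0.36 in SW480. Against the vector controls, MAPK3 was at 66.4% in SW620 and 80.2% in SW480 (adjusted limma p 3.56e-09 and 0.00242). One probe set measures MAPK3, and its name ends in x_at, the maker's mark for probes that may also bind other transcripts.

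The MEK knockdown arrays carried their own targets at low level. MAP2K1 fell by 1.86 in SW620 and by 1.37 in SW480 under its own hairpin, relative to the vector controls, and MAP2K2 fell by 1.85 and 1.89. Of the dimmer MAP2K2 probe sets, 1 stood at -1.62 and -1.45 under the MAP2K2 hairpin. Another stood at -0.01 and 0.02 and so showed no fall. MAP2K1 was higher in MAPK3 knockdown cells than in the MEK knockdown cells (0.92 ± 0.14 in SW620 and 0.55 ± 0.14 in SW480), while against vector controls it stood at -0.07 and 0.01. Of the 2 MEK genes, only MAP2K1 was called in both lines, and MAP2K2 (0.50 ± 0.33 in SW620, 1.06 ± 0.33 in SW480) was called in SW480. On the degraded SW620 array of replicate 2, MAP2K2 minus the mean of the MEK arrays of that round was -1.67, and without the 5 arrays set apart its changes were 0.96 in SW620 and 0.94 in SW480. A gap in this comparison can come from either side, and values against vector controls are given with some of the genes only.

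In both lines with the same sign, 129 genes were higher (0.652% of the genes tested) and 335 lower (1.69%) in MAPK3 knockdown than in MEK knockdown cells, 464 in all (2.35%). In SW620 1297 genes were higher (6.56%) and 1493 lower (7.55%), and in SW480 565 were higher (2.86%) and 735 lower (3.72%). Genes called in both lines with opposite signs numbered 24 (0.121%). A change of at least 2-fold in each line was seen in 3 of the higher genes (0.0152%) and 11 of the lower genes (0.0556%). The same rule gave 114 genes (0.576%) for MAP2K1 against the other 2 knockdowns, 164 (82 higher and 82 lower, 0.415% each and 0.829% together) for MAP2K2 against the other 2, and 38 (0.192%) for MAP2K1 against MAP2K2. These comparisons share arrays with the MAPK3 comparison.

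With replicates 3 to 6 alone, 1342 genes were higher in both lines (6.79%) and 1824 lower (9.22%), and 747 were called with opposite signs (3.78%). By line, 2952 were higher (14.9%) and 3919 lower (19.8%) in SW620, and 3948 higher (20%) and 3667 lower (18.5%) in SW480. Of the 129 higher and 335 lower genes, 123 (0.622%) and 333 (1.68%), together 456 (2.31%), were called with the same sign there too. The other comparisons also grew with replicates 3 to 6 alone, to 1336 higher (6.76%) and 734 lower (3.71%) for MAP2K1 against the other 2, to 1018 (5.15%) and 1060 (5.36%) for MAP2K2 against the other 2, and to 897 (4.54%) and 488 (2.47%) for MAP2K1 against MAP2K2. Without the 3 SW480 arrays of replicate 1, the both-line counts were 233 higher (1.18%) and 435 lower (2.2%), and without these and the 2 degraded arrays 461 (2.33%) and 753 (3.81%). The last of these held 123 (0.622%) of the 129 higher and 329 (1.66%) of the 335 lower genes. Leaving out 1 replicate number at a time, in all groups, gave 1083 both-line genes without replicate 1, 881 without replicate 2, and 178, 193, 172 and 189 without replicates 3, 4, 5 and 6. Averaging replicates 3 with 4 and 5 with 6, as their name endings A1, A2, B1 and B2 pair them, left 32 (2 higher, 30 lower).

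A stricter rule asked for the same sign and a call in both lines against each MEK knockdown alone and against the vector controls as well. It kept 16 higher (0.0809%) and 100 lower genes (0.506%), 116 together (0.587%), and with replicates 3 to 6 alone 282 (1.43%) and 659 (3.33%). Within replicates 3 to 6, all 4 MAPK3 arrays of each line lay above all 8 MEK arrays of that line in 569 genes (2.88%) and below all of them in 928 (4.69%). When the CDK5, HRAS and NGFR knockdowns and both vector controls were added to the reference, 53 genes stayed above all arrays in both lines (0.268%) and 148 below (0.748%). Of the both-line genes these were 19 of the 129 higher and 100 of the 335 lower. Over all 6 replicates no gene lay above all MEK arrays in both lines, and 5 lay below (0.0253%): UBFD1, FYTTD1, GLO1, INTS5 and KRTAP3-1, of which all but UBFD1 are named here after their values were seen.

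**Figure D2:**
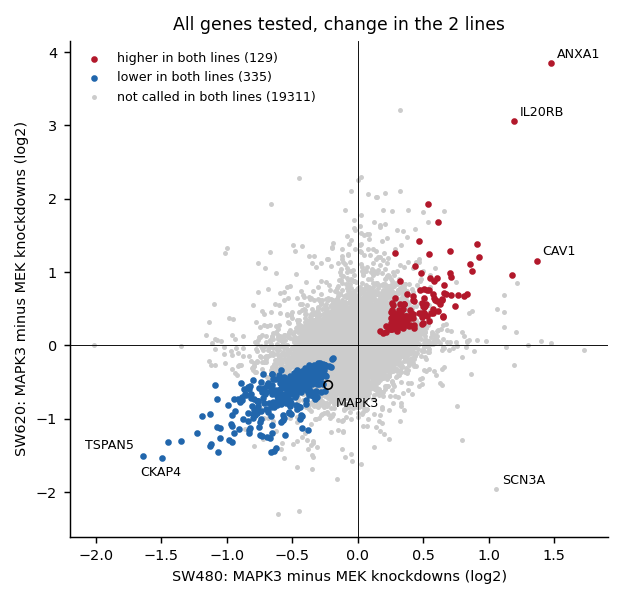
Each point is 1 of 19775 genes, with its change (MAPK3 knockdown minus MEK knockdowns, log2) in SW480 on the x axis and in SW620 on the y axis; red and blue points are the 129 higher and 335 lower genes called in both lines, and an open circle marks MAPK3. ANXA1 lies at 1.48 and 3.85, TSPAN5 at -1.64 and -1.51, and the called genes fill the upper right and lower left.

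Among the lower genes, TSPAN5 and CKAP4 had the largest falls common to both lines. TSPAN5 encodes a tetraspanin that guides the membrane protease ADAM10. Its level was 6.28 to 7.94 on the MAPK3 arrays (median 7.77) against 8.38 to 9.22 on the MEK arrays (median 9.09) in SW620, and 6.36 to 8.84 (median 6.72) against 7.74 to 9.14 (median 8.65) in SW480. The groups did not overlap in SW620, and in SW480 only the replicate 1 array labelled MAPK3, at 8.84, reached into the MEK range. TSPAN5 fell by 1.51 ± 0.16 in SW620 and by 1.64 ± 0.16 in SW480 (adjusted limma p 2.36e-12 and 7.36e-13), and by 1.22 and 1.37 relative to the vector controls. Both MEK knockdowns stood above the vector controls or close to them for this gene, by 0.04 to 0.49.

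CKAP4, a membrane protein of the rough endoplasmic reticulum that also serves as a cell surface receptor, had levels of 6.63 to 7.24 on the MAPK3 arrays (median 6.84) against 7.44 to 9.25 on the MEK arrays (median 8.47) in SW620. In SW480 the levels were 6.69 to 8.13 (median 7.35) against 7.72 to 9.49 (median 9.19). The SW620 groups were apart, and in SW480 the replicate 1 array labelled MAPK3, at 8.13, was the MAPK3 array that reached into the MEK range. CKAP4 fell by 1.53 ± 0.22 and 1.50 ± 0.22 (adjusted limma p 4.6e-08 in SW620 and 4.34e-07 in SW480). In SW620 both MEK knockdowns were themselves below the vector controls (-0.99 for MAP2K1, -0.72 for MAP2K2), and the MAPK3 knockdown lay farther below (-2.39).

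TAP2, SIKE1 and RAB23 were lower on all 12 MAPK3 arrays than the mean of the MEK arrays of the same line and round. TAP2, a subunit of the transporter that loads peptides onto MHC class I, fell by 1.30 ± 0.12 in SW620 and 1.35 ± 0.12 in SW480. On replicates 3 to 6 its levels were 6.49, 6.65, 6.89 and 7.01 on the SW620 MAPK3 arrays, against 8.00 to 8.25 on the MEK arrays, and 7.14, 7.29, 7.32 and 7.36 on the SW480 MAPK3 arrays, against 8.53 to 8.77. Neither MEK knockdown moved TAP2 by more than 0.14 from the vector controls in either line. SIKE1, a suppressor of the antiviral kinase IKKε, fell by 1.31 ± 0.17 and 1.45 ± 0.17, and RAB23, a small GTPase known in mouse as a brake on Hedgehog signalling, by 1.19 ± 0.13 and 1.23 ± 0.13. All 3 genes were called in both lines under the stricter rule.

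The lower genes also held TBPL1, RTF2, PARG, PDIA6 and UBFD1. TBPL1, a relative of the TATA-binding protein, fell by 1.34 ± 0.12 in SW620 and 1.12 ± 0.12 in SW480. RTF2, a factor of DNA replication forks, fell by 1.12 ± 0.10 and 1.05 ± 0.10, and PARG, which removes poly(ADP-ribose), by 1.11 ± 0.22 and 1.08 ± 0.22. PDIA6, a protein disulfide isomerase, fell by 1.10 ± 0.12 and 0.96 ± 0.12. PDIA6 levels in SW620 were 8.19 to 9.23 on the MAPK3 arrays (median 8.68) against 9.42 to 10.35 on the MEK arrays (median 9.78), with no overlap, and in SW480 the MAPK3 arrays of replicates 1 and 2, at 10.78 and 10.20, lay above the lowest MEK array at 10.05. UBFD1, a ubiquitin domain protein, fell by 1.45 ± 0.10 in SW620 and 1.06 ± 0.10 in SW480, the calcium-binding S100A16 by 1.29 and 0.98, the secreted matrix protein CTHRC1 by 1.26 and 1.06, and TRBC1 by 1.37 and 1.13. TRBC1, a T cell receptor constant region with a near-identical copy, TRBC2, whose signal the probes may share, is named beside 0 of 7 blood cell markers above the median gene, and a part of blood cells in its value was not tested.

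OIP5 and ANKEF1 differed from the rest of the 15 lower genes. OIP5, a centromere protein, fell by 1.07 ± 0.20 in SW620 and 0.97 ± 0.20 in SW480 against the MEK knockdowns. Against the vector controls it stood at 0.02 in SW620, where the MAP2K1 and MAP2K2 knockdowns stood at 1.19 and 0.98. ANKEF1 (-1.32 ± 0.16 and -0.96 ± 0.16) was called against the vector controls in SW620 (-1.79) and stood at -0.42 in SW480 (adjusted limma p 0.09). The other 13 lower genes were called under the stricter rule, and 10 of the 15 lay below every array of all 7 other treatments in both lines within replicates 3 to 6, where 0.748% of all genes did. The 15 were picked for the size of their change. With replicates averaged in pairs, CKAP4, TRBC1, PARG, CTHRC1, OIP5 and ANKEF1 lost their SW480 call, and OIP5 also its SW620 call. Without the term for round, SIKE1, RAB23, PARG and OIP5 lost their calls in both lines, and TRBC1, CTHRC1 and ANKEF1 lost theirs in SW480.

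**Figure D3:**
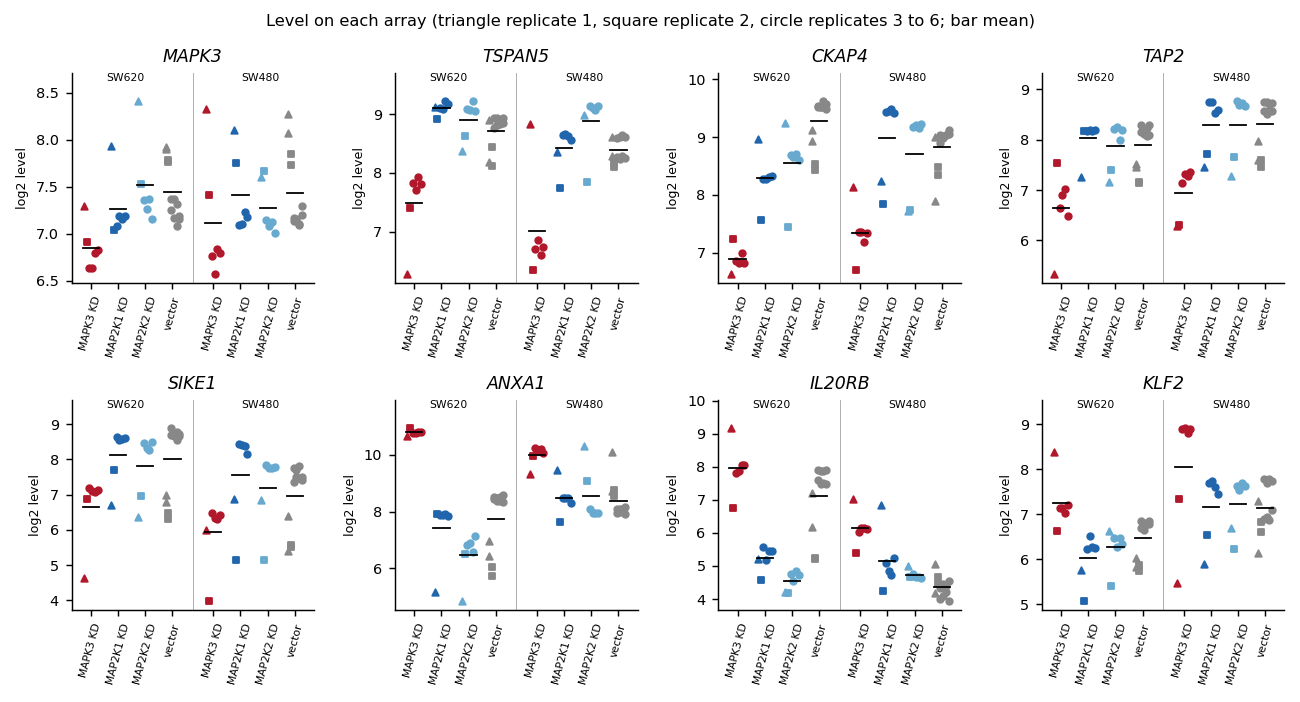
Log2 level (y axis) on each array for MAPK3, 4 lower genes and 3 higher genes, with the MAPK3, MAP2K1 and MAP2K2 knockdowns (KD) and the vector controls side by side in SW620 and in SW480; bars are means over all replicates. The circles of replicates 3 to 6 separate the MAPK3 from the MEK knockdowns in every panel, and the SW480 triangle of replicate 1 often does not follow them.

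Transcription factors of the ETS family bind DNA with the core CCGGAA or its complement, and several are ERK substrates, so the promoters of the lower genes were searched for these letters. The window runs from 250 bases before to 50 bases after the gene start (RefSeq, GRCh38.p14). The promoters of 3 lower genes that hold the core more than once are shown, with the core in capitals (CCGGAA on the strand shown, TTCCGG where it lies on the other). RTF2 (plus strand of chr20:56468377-56468676) holds it 3 times, PARG (minus strand of chr10:49941978-49942277) 4 times and TBPL1 (plus strand of chr6:133952974-133953273) 2 times.
RTF2: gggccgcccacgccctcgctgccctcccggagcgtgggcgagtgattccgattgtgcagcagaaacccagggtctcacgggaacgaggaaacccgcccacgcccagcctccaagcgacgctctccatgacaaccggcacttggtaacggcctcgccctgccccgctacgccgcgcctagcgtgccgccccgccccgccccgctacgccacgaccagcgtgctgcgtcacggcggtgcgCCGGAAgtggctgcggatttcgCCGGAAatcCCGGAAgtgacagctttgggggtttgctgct
PARG: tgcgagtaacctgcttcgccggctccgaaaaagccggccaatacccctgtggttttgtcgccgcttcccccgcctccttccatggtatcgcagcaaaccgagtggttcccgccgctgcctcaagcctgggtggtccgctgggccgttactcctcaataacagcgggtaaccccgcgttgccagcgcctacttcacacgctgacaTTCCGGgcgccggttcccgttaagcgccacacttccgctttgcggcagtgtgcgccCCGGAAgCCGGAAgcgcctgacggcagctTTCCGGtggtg
TBPL1: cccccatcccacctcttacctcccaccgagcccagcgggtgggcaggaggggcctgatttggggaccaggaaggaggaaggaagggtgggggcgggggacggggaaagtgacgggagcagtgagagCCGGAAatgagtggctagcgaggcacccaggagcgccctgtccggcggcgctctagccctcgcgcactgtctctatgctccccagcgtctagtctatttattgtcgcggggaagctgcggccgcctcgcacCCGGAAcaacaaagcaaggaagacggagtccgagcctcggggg
Over all lower genes called in both lines with a promoter in the table, 29.3% of 276 held the core, against 23.1% of 104 higher genes, 23.1% of the 15384 genes tested that had a promoter, and 17.6% of all 27305 promoters. Of the 12 named lower genes with a promoter 5 held it (SIKE1, TBPL1, PARG, UBFD1 and RTF2), and of the 12 named higher genes 1 did (ZNF174). The AP-1 site TGANTCA was found in 3.26% of the lower, 8.65% of the higher and 5.84% of the tested genes' promoters, and the CArG box of SRF in 1.45%, 0 and 1.22%, over both strands. A match is a run of letters and not a measured binding site, and these shares were not tested.

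ANXA1 and IL20RB led the higher genes, with larger rises in SW620. ANXA1 encodes annexin A1, a membrane-binding protein that restrains inflammation. In SW620 its level was 10.67 to 10.95 on the MAPK3 arrays (median 10.79) against 4.85 to 7.91 on the MEK arrays (median 7.03), and in SW480 9.32 to 10.23 (median 10.10) against 7.62 to 10.32 (median 8.39). All SW620 MAPK3 arrays were above all MEK arrays, and in SW480 the MEK arrays of replicate 1, at 9.47 and 10.32, reached the MAPK3 range. ANXA1 rose by 3.85 ± 0.35 in SW620 and 1.48 ± 0.35 in SW480 (adjusted limma p 4.66e-15 and 0.00326), and by 3.42 and 1.95 with replicates 3 to 6 alone. Its SW480 call was lost without the term for round, with replicates averaged in pairs (1.24), and on leaving out any 1 of replicates 3, 4, 5 and 6 (1.37 to 1.39, adjusted limma p 0.0525 to 0.0633). It was also higher than in vector controls, by 3.06 and 1.62.

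IL20RB, a receptor chain for cytokines of the IL-20 family, had levels of 6.77 to 9.18 on the SW620 MAPK3 arrays (median 7.95) against 4.18 to 5.57 on the MEK arrays (median 4.81). In SW480 the levels were 5.38 to 7.01 (median 6.12) against 4.23 to 6.85 (median 4.75). The SW620 groups were apart, and in SW480 the MAP2K1 array of replicate 1 was the one inside the MAPK3 range. IL20RB rose by 3.06 ± 0.25 in SW620 and 1.19 ± 0.25 in SW480 (adjusted limma p 7.11e-17 and 0.000793). Against vector controls in SW620 the MAPK3 knockdown was 0.83 higher, and the MAP2K1 and MAP2K2 knockdowns stood at -1.88 and -2.58. Within replicates 3 to 6, IL20RB averaged 7.94 ± 0.13 in SW620 with the MAPK3 hairpin, against 7.89 ± 0.023 with the empty vector and 7.52 ± 0.063 with the non-target hairpin (SD, n = 4 each).

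CAV1, the scaffold protein of caveolae, rose by 1.16 ± 0.28 in SW620 and 1.37 ± 0.28 in SW480. In SW620 it stood at 0.47 against vector controls (adjusted limma p 0.2) with both MEK knockdowns lower (-0.73 and -0.64), and in SW480 the MAPK3 knockdown was 1.31 above the vector controls. On replicates 3 to 6 the SW480 levels of CAV1 were 9.51 to 9.61 on the MAPK3 arrays, against 7.40 to 7.64 on the MEK arrays, with no overlap. ALPP, placental alkaline phosphatase, rose by 0.96 ± 0.16 and 1.18 ± 0.16, and its close paralogs may share the probes. KLF2, a zinc finger transcription factor of the immediate early list, rose by 1.11 ± 0.18 in SW620 and 0.86 ± 0.18 in SW480, and stood 0.78 and 0.91 above the vector controls. On the SW480 array labelled MAPK3 knockdown of replicate 1, KLF2 was at 5.47, below the MEK arrays, against 8.80 to 8.92 on replicates 3 to 6.

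The remaining 10 higher genes rose by 0.68 to 1.38 in SW620 and by 0.71 to 0.93 in SW480. GPNMB, a transmembrane glycoprotein, rose by 1.38 and 0.91, CALML4, a calmodulin-like protein of the intestinal brush border, by 1.02 and 0.87, and SLPI, a secreted protease inhibitor, by 1.28 and 0.71. DCP2, the mRNA decapping enzyme, rose by 0.69 and 0.76, ZNF174 by 0.93 and 0.71, MLLT11 by 0.68 and 0.81, SMIM13 by 0.69 and 0.71, and OPN3, a non-visual opsin, by 1.21 and 0.93. ITGB2-AS1, a transcript antisense to the integrin gene ITGB2, rose by 0.70 and 0.83. KCTD18 rose by 0.99 and 0.71 against the MEK knockdowns but stood at -0.07 and 0.15 against vector controls, with the MAP2K1 knockdown at -1.35 and -0.95. Within replicates 3 to 6 in SW620, OPN3 averaged 8.01 with the MAPK3 hairpin, against 8.13 with the empty vector and 8.24 with the non-target hairpin. SLPI averaged 7.51 against 7.61 and 7.41, and MLLT11 10.11 against 10.05 and 10.12. In SW480 OPN3, SLPI and MLLT11 averaged above both controls. GPNMB, CALML4, ZNF174, DCP2, SMIM13 and ITGB2-AS1 did so in both lines. Of the 15 higher genes 10 passed the stricter rule, and 5 of the 15 (ANXA1, ALPP, GPNMB, CALML4 and ZNF174) lay above every array of all other treatments in both lines within replicates 3 to 6, where 0.268% of all genes did. None of the 15 had MAPK3 and MEK arrays apart in both lines over all replicates, while 14 did within replicates 3 to 6. MAPK3 arrays lay above all MEK arrays in both lines in 0 of all genes over all replicates and in 2.88% within replicates 3 to 6, and the 15 were picked for the size of their change. With replicates averaged in pairs, 14 of the 15 lost their SW480 call.

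**Figure D4:**
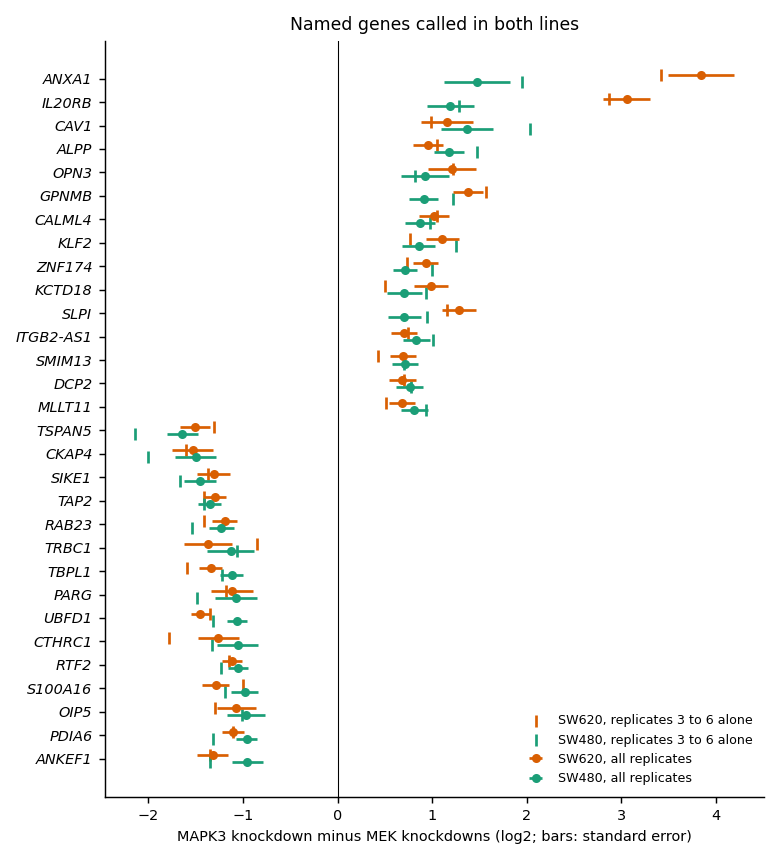
Change of the 15 higher and 15 lower genes (x axis, MAPK3 knockdown minus MEK knockdowns, log2; points with standard error bars for all replicates, vertical ticks for replicates 3 to 6 alone) in SW620 and SW480. Every tick lies on the same side of 0 as its point by the rule that picked these genes. ANXA1 and IL20RB reach 3.85 and 3.06 in SW620.

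Within the pathway itself, the genes called in both lines over all replicates were few. Of 6 measured RAF, MEK and ERK kinase genes, MAP2K1 was higher (above) and KSR1 lower. With replicates 3 to 6 alone, 2 of the 6 were higher and 3 lower in both lines, where 6.79% and 9.22% of all genes were. The 6 include the hairpin targets MAPK3, MAP2K1 and MAP2K2, whose direction in this comparison is built in. These counts are therefore no result about the pathway. KSR1 encodes a scaffold that brings RAF, MEK and ERK together. Its levels were 5.54 to 6.42 on the SW620 MAPK3 arrays (median 5.90) against 6.10 to 6.77 on the MEK arrays (median 6.70), and 5.12 to 5.94 (median 5.83) against 5.45 to 6.38 (median 6.16) in SW480. The groups overlapped over all replicates and not within replicates 3 to 6. KSR1 fell by 0.64 ± 0.095 and 0.38 ± 0.095 (adjusted limma p 1.63e-07 in SW620 and 0.00555 in SW480), and its change against vector controls was -0.47 in SW620 and -0.16 in SW480 (adjusted limma p 0.32). Among 11 RAS GTPases and exchange factors and 10 ERK scaffolds and restraints, limma called 0 in both lines (1 RAS list gene was higher at an unadjusted p under 0.05, and 0 scaffold genes passed). PAQR3 in SW480 (-0.54) and LAMTOR2 in SW620 (-0.51) were the scaffold genes called in 1 line, and NF1 in SW620 (0.23) and MRAS in SW480 (0.37) the genes of the RAS list. NF1 was dim, at 3.48 to 4.48 on the SW620 arrays of the comparison, below the lowest array median of 5.06, and its groups overlapped. Without the 5 arrays set apart, PAQR3 stood at -0.25 in SW480 and was not called, and LAMTOR2 at -0.26 in SW620.

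Of 16 ERK-activated kinases and transcription factors, SRF alone was called in both lines over all replicates. With replicates 3 to 6 alone, 2 of the 16 were higher and 3 lower in both lines, where 6.79% and 9.22% of all genes were. SRF, the serum response factor, fell by 0.53 ± 0.080 in SW620 and 0.27 ± 0.080 in SW480 (adjusted limma p 2.58e-07 and 0.0243), and by 0.46 and 0.37 relative to the vector controls. Its SW620 levels were 6.76 to 7.09 on the MAPK3 arrays (median 6.98) against 6.89 to 7.79 on the MEK arrays (median 7.60), and its SW480 levels 6.57 to 6.90 (median 6.73) against 6.71 to 7.29 (median 7.03). The groups overlapped in both lines over all replicates and not within replicates 3 to 6. ETS2 (-0.47) and RPS6KA5, a nuclear kinase below ERK (-0.79), were lower in SW480 only by the test, and ELK1, which binds DNA beside SRF, in SW620 (-0.33). The difference between the lines was itself called for ELK1 (adjusted limma p 0.019) and not for ETS2 or RPS6KA5.

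The transcriptional output of the pathway gave calls of both signs in SW620 and few in SW480. Of 25 MAPK output genes, limma called 0 in both lines with the same sign over all replicates. At an unadjusted p under 0.05 in both lines with the same sign, 0 passed. With replicates 3 to 6 alone, 3 of the 25 were higher and 6 lower in both lines, where 6.79% and 9.22% of all genes were. Without the 5 arrays set apart, 1 was higher and 0 lower, where 2.33% and 3.81% of all genes were. Over all replicates the medians of the list were -0.02 in SW620 and -0.06 in SW480 beside medians of -0.0036 and 0.01 over all genes. In SW620, 5 members were higher (EMP1, PLAUR, FOSL1, SPRED1 and SPRY1) and 6 lower (DUSP6, SPRY4, SPRY2, EPHA2, ETV4 and ETV5), 11 of 25 where 14.1% of all genes were called. DUSP6, the phosphatase of ERK, stood at -1.02 and SPRY4, a feedback inhibitor, at -0.65, while PLAUR, the urokinase receptor, stood at 1.07. Without the 5 arrays set apart, EPHA2 stood at -0.18, against -0.47 with them, and was not called. In SW480 only IER3 was called (-0.34), where 6.57% of all genes were. In SW620 PLAUR stood at -0.19 against vector controls under the MAPK3 hairpin and at -1.35 and -1.19 under the MAP2K1 and MAP2K2 hairpins. DUSP6 stood at -1.39 under the MAPK3 hairpin and at -0.18 and -0.58 under the MEK hairpins.

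Immediate early genes had medians of opposite sign in the lines. The median change was -0.30 in SW620 and 0.09 in SW480 over 18 members, and for 6 of them the difference between the lines was called (3.23% of all genes were). EGR3 and EGR1, zinc finger factors induced by ERK, fell in SW620 (-0.88 and -0.79) and stood at 0.35 and 0.33 in SW480, not called. FOSB rose in SW480 (0.66) and KLF4 in SW620 (1.31), and KLF2 rose in both lines. Of 10 EGF ligands and ERBB receptors limma called 0 in both lines (0 at an unadjusted p under 0.05). HBEGF rose in SW620 (0.52) and BTC fell in SW480 (-0.30). BTC was dim, at 3.36 to 4.33 on the SW480 arrays of the comparison, below the lowest array median of 5.06, and its groups overlapped.

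Over all replicates, proliferation genes gave no both-line call by limma. These were 0 of 23 for G1/S and DNA replication, 0 of 26 for G2/M and mitosis, and 0 of 14 cyclins D, CDK4/6 and CDK inhibitors. At an unadjusted p under 0.05 in both lines, 1 replication gene was lower and 0 members of the other 2 lists passed. In SW620, CDC45 (-0.57), MCM5 (-0.83), CDCA8 (-0.62), CENPA (-0.40) and CDKN2A (-0.57) fell, and no member of the 3 lists was called in SW480. On the degraded SW620 array of replicate 2, MCM5 minus the mean of the MEK arrays of that round was -3.13, and CDKN2A was at -1.56. Without the 5 arrays set apart, MCM5 stood at -0.44 in SW620 and was not called, and CDKN2A at -0.38. With replicates 3 to 6 alone, 8 of the 23 replication genes were lower in both lines, where 9.22% of all genes were, and 1 was higher. Of the 26 mitosis genes 4 were lower and 2 higher there, and of the 14 cyclin and CDK genes 2 and 2. Higher in both lines there were 6.79% of all genes.

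The cholesterol synthesis, amino acid response and unfolded protein response lists held 1 both-line gene each. Of 14 cholesterol synthesis genes, SREBF2, the transcription factor that drives the list, fell in both lines (-0.69 ± 0.11 in SW620 and -0.34 ± 0.11 in SW480, adjusted limma p 1.53e-06 and 0.0488). The medians of the list were -0.26 and -0.32, and over the mean of both lines 5 of 14 members were lower and 0 higher, where 8.84% and 8.01% of all genes were. With replicates 3 to 6 alone 9 of the 14 were lower in both lines, where 9.22% of all genes were. Of 21 amino acid response genes, DDIT3 (CHOP) rose by 0.65 ± 0.11 and 0.50 ± 0.11; against vector controls it stood at -0.24 and 0.33, with the MAP2K1 knockdown at -0.92 and -0.32. In SW620, 7 of the 21 were higher and 1 lower, where 6.56% and 7.55% of all genes were, with SLC7A11, the cystine importer, at 1.05. Of 17 unfolded protein response genes PDIA6 was lower in both lines. With replicates 3 to 6 alone, both-line calls were 8 higher and 2 lower for amino acid response, and 5 and 3 for unfolded protein response. Of all genes 6.79% and 9.22% were.

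Among Wnt target genes, PROX1, a homeobox factor and Wnt target in colorectal tumours, was the one of 16 called in both lines (-0.85 ± 0.17 in SW620 and -0.66 ± 0.17 in SW480, adjusted limma p 8.77e-05 and 0.00616). Its levels were 6.43 to 9.37 on the SW620 MAPK3 arrays (median 9.13) against 7.67 to 10.19 on the MEK arrays (median 9.67), with overlap. PROX1 was not called against vector controls (-0.25 and 0.37), and both MEK knockdowns stood above them by 0.57 to 1.20. The medians of the list were -0.42 and -0.25, and 6 members were lower in SW620 (APCDD1, LEF1, NKD1, PROX1, SP5 and ZNRF3), where 7.55% of all genes were, and CD44 was higher (1.64). With replicates 3 to 6 alone, 8 of the 16 were lower in both lines and 0 higher, where 9.22% and 6.79% of all genes were. NKD1, a feedback inhibitor of Wnt signalling, stood at -1.31 against vector controls in SW620 and at 0.02 and 0.01 in the MEK knockdowns.

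**Figure D5:**
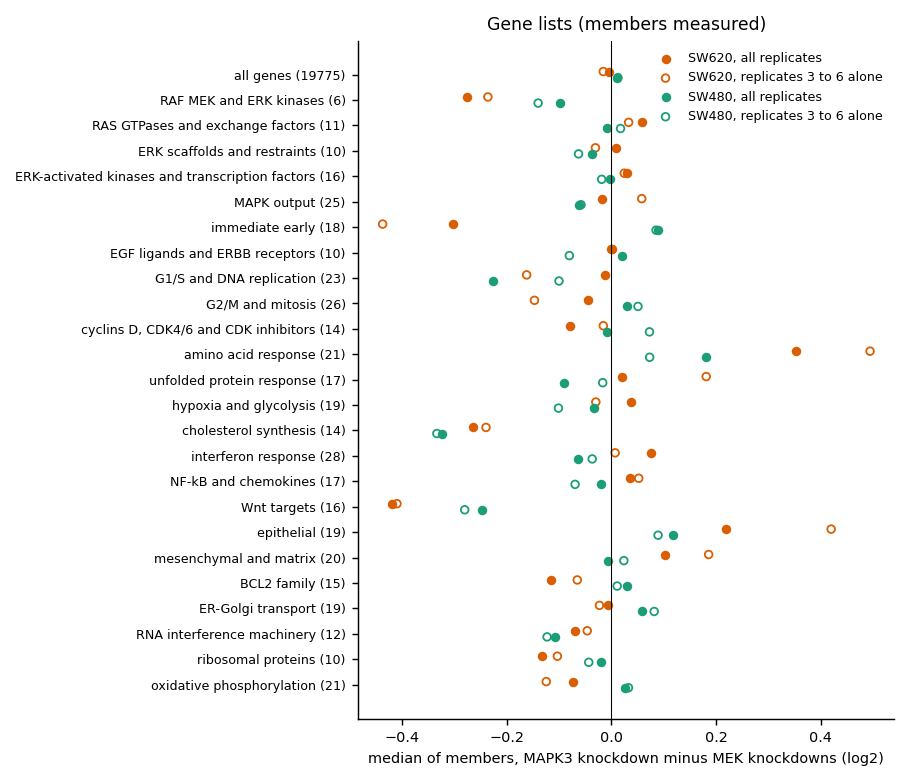
Median change of the measured members of each gene list (x axis, MAPK3 knockdown minus MEK knockdowns, log2), with the number measured beside its name, for SW620 and SW480, all replicates (filled) and replicates 3 to 6 alone (open). Cholesterol synthesis and Wnt target medians are below 0 in both lines, immediate early genes have -0.30 in SW620 and 0.09 in SW480, and all genes lie near 0.

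Over all replicates, inflammatory, epithelial and matrix lists gave calls in 1 line at a time. Without the 5 arrays set apart, 2 NF-kB, 2 epithelial and 1 mesenchymal gene were higher in both lines and 0 lower. Of all genes 2.33% and 3.81% were. With replicates 3 to 6 alone, both-line calls were 4 higher and 2 lower for NF-kB, 8 and 0 for epithelial, and 4 and 2 for mesenchymal genes. Of all genes 6.79% and 9.22% were. The following counts hold all replicates. Of 17 NF-kB target and chemokine genes, 6 were higher in SW620 and 3 lower in SW480, where 6.56% and 3.72% of all genes were, and limma called 0 in both lines with the same sign (2 higher and 1 lower at an unadjusted p under 0.05). The neutrophil attractant CXCL8 rose by 2.11 ± 0.22 in SW620 and stood at 0.32 ± 0.22 in SW480, CXCL2 at 1.07 and 0.36, and CCL20 at 2.26 and 0.01. NFKBIA, NFKB1 and IL32 were the 3 lower in SW480, and NFKBIA (-0.37) stood at -0.28 without the 5 arrays set apart and was not called. Of 19 epithelial genes, 7 were higher in SW620 and 0 in SW480, where 6.56% and 2.86% of all genes were, among them the intestinal keratin KRT20 (1.58) and the cadherin CDH17 (1.43). CDH1, E-cadherin, rose by 1.85 in SW620 against the MEK knockdowns; against vector controls it stood at 0.20, with the MEK knockdowns at -1.45 and -1.86. Of 20 mesenchymal and matrix genes, MMP7 (1.71), PLAU (1.17) and SERPINE2 (0.84) were higher and SNAI1 (-0.41) lower in SW620, and COL4A1 (0.68) and COL4A2 (0.52) were higher in SW480. These shares of higher genes, 3 and 2 of 20, stand beside 6.56% and 2.86% of all genes. LUM, on the fibroblast marker list, also rose in SW620 (1.83), FAP of the same list rose in SW480 (0.31), and their part in these results was not tested.

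The other lists had calls in 1 line at a time over all replicates. Without the 5 arrays set apart, both-line calls were 2 higher for ER-Golgi transport and 1 higher for interferon response. The BCL2 family had 1 higher and 1 lower. The hypoxia, RNA interference and oxidative phosphorylation lists had 1 lower each. Of all genes 2.33% were higher and 3.81% lower. With replicates 3 to 6 alone, hypoxia genes had 3 higher and 4 lower, where 6.79% and 9.22% of all genes were. The following counts hold all replicates. Among all genes, 6.56% were higher and 7.55% lower in SW620, and 2.86% and 3.72% in SW480. In the interferon response list, 4 of 28 were higher in SW620, and IFI44 was higher and IFIT3 lower in SW480. Of 19 hypoxia and glycolysis genes, 2 were higher and 1 lower in SW620, and ADM was the 1 lower in SW480 (-1.09). Of 15 genes of the BCL2 family, 2 were higher and 4 lower in SW620, and 2 were higher and 1 lower in SW480. Of 12 genes of the RNA interference machinery, TARBP2 (-0.65) and XPO5 (-0.42) were lower in SW620. On the degraded SW620 array of replicate 2, XPO5 minus the mean of the MEK arrays of that round was -1.54. Without the 5 arrays set apart TARBP2 stood at -0.36 and XPO5 at -0.20, and with replicates 3 to 6 alone XPO5 stood at -0.09 and was not called. Of 10 ribosomal protein genes 5 were lower in SW620, by 0.80 (RPS14) at most, and of 21 oxidative phosphorylation genes 3 were. With replicates 3 to 6 alone, without the degraded arrays, RPS14 stood at -0.16. Of 19 ER-Golgi transport genes 3 were higher in SW620.

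The difference between the lines, SW620 minus SW480, was called for 413 genes above 0 (2.09%) and 226 below (1.14%). GASK1B, a Golgi-associated kinase-like protein, gave the largest positive value among the named genes. In SW620 its level was 7.57 to 8.94 on the MAPK3 arrays (median 8.13) against 3.01 to 6.87 on the MEK arrays (median 5.01), and in SW480 3.43 to 4.33 (median 4.18) against 3.11 to 3.99 (median 3.68). The groups were apart in SW620 and overlapped at low levels in SW480, for a difference of 2.89 ± 0.33. LYZ, lysozyme, which also stands on the blood cell marker list, gave 2.73 ± 0.46, CALB1, a calcium-binding protein, 2.59 ± 0.53, and ANXA1 2.37 ± 0.50.

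NT5E, the cell surface enzyme CD73, was called in both lines with opposite signs. Its level was 4.52 to 5.61 on the SW620 MAPK3 arrays (median 5.45) against 3.63 to 4.47 on the MEK arrays (median 3.90), and 3.87 to 7.31 (median 7.18) against 4.15 to 9.03 (median 8.43) in SW480. NT5E rose by 1.32 ± 0.17 in SW620 and fell by 1.00 ± 0.17 in SW480, a difference of 2.32 ± 0.24 (adjusted limma p 1.81e-11). SCN3A, a voltage-gated sodium channel, did the reverse (-1.96 ± 0.25 in SW620 and 1.06 ± 0.25 in SW480), as did DACH1 (-1.29 and 0.79). APCDD1, an inhibitor of Wnt signalling, fell by 2.26 in SW620 and stood at -0.45 in SW480, and A2M fell by 2.30 and stood at -0.61. ZBED2 stood at -0.07 in SW620 and rose by 1.73 in SW480.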

How the data were processed

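RNA from SW620 and SW480 cells was measured on Affymetrix arrays, and the deposited table holds log2 values that the authors made with RMA, per the labels (version not given in the sources used here). RMA sets all arrays to 1 distribution of values, so a shift shared by most genes would not show. Of 54675 probe sets, 41097 carried 1 gene symbol, 1801 several and 11777 none, and symbols were updated through gene IDs to current RefSeq names (41043 updated, 54 kept). The brightest probe set stood for each of 19775 genes. Depth has no count on arrays, and the number of arrays limits the precision.

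limma 3.58.1 (R 4.3.3, trended and robust empirical Bayes) fitted all arrays of the series, with treatment by line and round within line. Contrasts were the MAPK3 knockdown minus the mean of both MEK knockdowns in each line, their mean, and their difference, SW620 minus SW480. Two-sided p-values were adjusted by Benjamini-Hochberg over all genes, with a threshold of 0.05. Same-numbered arrays of replicates 3 to 6 correlated from -0.0324 to 0.158 after group means were removed, so the numbers were not taken to pair arrays.

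Named genes were the targets, the 15 highest and 15 lowest both-line genes by the smaller of the line changes (same sign with replicates 3 to 6 alone), for each list the members called in both lines or else the 2 of smallest p, and the 5 largest line differences each way, passing over open reading frames and unnamed loci. Other members of the lists were named where the test called them in 1 line, after their values were seen. The members and the 24 gene lists (405 genes measured of 445) were chosen with earlier results of these data known. Alternatives changed the round term, the arrays in the model, the reference, the probe set rule, dim genes, normalisation and the replicates used. Hairpin sequences were not analysed here.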

Additional observations from a re-analysis of the deposited data

Results flagged for a closer look

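In 35 of 78 groups of 6 arrays, 1 array stood far from the other 5 by Dixon's criterion. Chance flags about 1 in 20 groups only where the 6 values are independent and of equal spread. That rate cannot be set against these groups. Gene values of the same line and round share their MEK reference, and the same arrays recur in the groups of many genes. Gene values are the MAPK3 array minus the mean of the MEK arrays of its line and round (log2). A far value can therefore come from the MAPK3 array or from the MEK arrays, and causes were not tested.

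The SW480 value of replicate 1 stood apart for 18 genes. It was at 0.467 for MAPK3, 1.66 for MAP2K2 and 1.47 for OPN3, with CALML4 at 0.114. Among the higher genes it was at -0.576 for ANXA1, -0.235 for ALPP, -0.625 for GPNMB, -0.835 for KLF2, -0.328 for ZNF174, -0.697 for KCTD18, -0.504 for SLPI and -0.0151 for ITGB2-AS1. Among the lower genes it was at 0.163 for TSPAN5, -0.438 for TBPL1, -0.168 for UBFD1, -0.0691 for RTF2, -0.198 for S100A16 and 0.454 for PDIA6.

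The SW620 value of replicate 1 stood apart at 1.44 for MAP2K1, 5.66 for ANXA1, 4.47 for IL20RB, 1.76 for CAV1, 0.385 for ITGB2-AS1 and -2.47 for TSPAN5. For ANXA1 all SW620 MAPK3 arrays lay at 10.67 to 10.95, while the MEK arrays went down to 4.85. For MAP2K1 they lay at 9.78 to 9.89, while the MEK arrays went down to 6.68. The SW620 value of replicate 2, with degraded RNA on the MAPK3 and MAP2K1 arrays, stood apart for 6 genes. It was at -1.67 for MAP2K2, -0.295 for RAB23, -3.42 for TRBC1, -0.392 for TBPL1, -1.97 for UBFD1 and -2.46 for S100A16. The places between the lines of the SW480 replicate 1 arrays (0.553, 0.368 and 0.691) and the GAPDH differences of 2 SW620 arrays (2.95 and 6.04) were flagged by the same criterion.

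The change differed between the lines by the test of the difference itself in limma (SW620 minus SW480). It was 2.37 for ANXA1, 1.86 for IL20RB, 1.04 for PLAUR, 1.18 for ADM, 1.79 for CXCL8, 0.712 for CXCL2, 1.28 for KRT20, 1.24 for CDH17, 1.73 for MMP7 and 1.29 for PLAU. It was 2.89 for GASK1B, 2.73 for LYZ, 2.59 for CALB1 and 2.32 for NT5E, and below 0 for SCN3A (-3.02), DACH1 (-2.08), APCDD1 (-1.81), ZBED2 (-1.79) and A2M (-1.69).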

How the results depend on the processing

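With all replicates, 464 genes were called in both lines, 2790 in SW620, 1300 in SW480, 3331 over the mean of lines and 639 for the difference. Without a term for round these were 43, 542, 93, 623 and 70. With name endings averaged in pairs they were 32, 1034, 66, 913 and 84. With replicates 3 to 6 only they were 3166, 6871, 7615, 8670 and 5421. With only the 36 knockdown arrays in the model, 859 were called in both lines, 2377 in SW480 and 1421 for the difference. With the MAP2K1 knockdown alone as the reference, SW620 had 1790, SW480 799 and the difference 255. Without the degraded arrays, 884 were called in both lines and 2272 in SW480. Without these and the SW480 arrays of replicate 1, chosen after seeing the data, the counts were 1214 in both lines, 2937 in SW480, 5196 over the mean and 1128 for the difference. Leaving out 1 replicate at a time gave 172 (without replicate 5) to 1083 (without replicate 1) in both lines, 1875 to 4236 in SW620, 422 to 3027 in SW480, 1930 to 5159 over the mean and 274 to 1724 for the difference. The causes were not tested.

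The replicate block gave 401 both-line genes, all among the 464, and changed 1 of 118 single-gene results (CENPA). The numbers do not pair the arrays. The direction turned for MAP2K1 with the MAP2K2 knockdown alone as the reference (-0.27 in SW480, -0.10 over the mean), since this leaves out the MAP2K1 knockdown, and XPO5 stood at 0.011 over the mean with replicates 3 to 6 only. Averaging in pairs ended 52 of the 118 results and dropping the round term 63. Leaving out replicate 3, 4, 5 or 6 ended the SW480 calls of MAP2K2, ANXA1, OPN3, KCTD18 and SLPI.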
